A study of Mus musculus with 5 samples.

Results

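The BCL2 family survival and death genes are 10 mouse genes taken by symbol from a table of 19726 symbols: Bcl2, Bcl2l1, Mcl1, Bcl2a1a, Bcl2a1b, Bcl2a1d, Bcl2l11, Bax, Bbc3 and Pmaip1. All 10 were listed in each of the 5 libraries. The rule itself uses symbols only, but the genes were proposed with earlier results of these data known. The libraries were made from RNA of cells labelled CD4+ T cells, 3 from spleen (replicates 1, 2 and 3) and 2 from MC38 tumor (replicates 2 and 3), all from animals 7 weeks old of the strain C57/Bl6j with the wild-type genotype. The MC38 line derives from a mouse colon carcinoma and is commonly grown as a graft. RNA came from 300000 cells per extraction, and stranded libraries depleted of ribosomal RNA were read in pairs of 75 bases. Values are transcripts per 1000000 (TPM), a share of a library's transcripts corrected for length. The sources used here give neither the method of isolation nor whether each replicate is a separate mouse. A p-value therefore reflects only variation among these 5 samples, possibly technical.

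BCL2 family proteins decide whether the outer mitochondrial membrane is opened during apoptosis. Pro-survival members (BCL2, BCL-XL from Bcl2l1, MCL1 and A1 from the Bcl2a1 genes) hold in check the effectors BAX and BAK, which form the pores, and BH3-only members (BIM from Bcl2l11, PUMA from Bbc3 and NOXA from Pmaip1) bind the pro-survival proteins and, in part, the effectors. In T cells, BCL2 and MCL1 are known to keep resting cells alive, BCL-XL and A1 to be induced on activation, and BIM to drive the death of cells after a response or on loss of cytokine.

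Sequences matter first for the Bcl2a1 genes, because the copies are so alike that reads can often not be assigned to 1 of them. In GRCm38 with the GENCODE M21 annotation the 3 genes lie on chromosome 9: Bcl2a1a at chr9:88956900-88962419 on the plus strand, Bcl2a1b at chr9:89199209-89207827 on the plus strand and Bcl2a1d at chr9:88723285-88731914 on the minus strand. Their coding sequences without the stop codon are 516 bases each. Bcl2a1a and Bcl2a1b share 97.9% of those bases, Bcl2a1a and Bcl2a1d 98.6%, and Bcl2a1b and Bcl2a1d 98.8%. The first 100 coding bases are shown because they hold 7 of the 12 positions at which any of the 3 copies differ. Capitals mark the differing positions, sequences run 5′ to 3′ on the coding strand, and each stretch lies in 1 exon, at chr9:88957051-88957150, chr9:89199360-89199459 and chr9:88731620-88731719 in the order given.
Bcl2a1a: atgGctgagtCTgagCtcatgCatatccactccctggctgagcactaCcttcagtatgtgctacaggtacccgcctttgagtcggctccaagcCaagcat
Bcl2a1b: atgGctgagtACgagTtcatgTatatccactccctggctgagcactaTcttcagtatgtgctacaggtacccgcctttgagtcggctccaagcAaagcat
Bcl2a1d: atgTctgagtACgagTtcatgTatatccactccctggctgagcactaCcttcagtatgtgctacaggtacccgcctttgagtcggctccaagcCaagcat

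Coding bases 302 to 411 are shown because 4 more of the differing positions fall there, after a stretch in which the copies cannot be told apart. They lie at chr9:88957352-88957461 (Bcl2a1a), chr9:89199661-89199770 (Bcl2a1b) and chr9:88731309-88731418 (Bcl2a1d), again each in 1 exon.
Bcl2a1a: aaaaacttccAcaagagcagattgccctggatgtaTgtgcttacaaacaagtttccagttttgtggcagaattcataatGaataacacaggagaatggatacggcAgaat
Bcl2a1b: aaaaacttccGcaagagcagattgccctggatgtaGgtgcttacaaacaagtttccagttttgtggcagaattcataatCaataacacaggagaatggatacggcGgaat
Bcl2a1d: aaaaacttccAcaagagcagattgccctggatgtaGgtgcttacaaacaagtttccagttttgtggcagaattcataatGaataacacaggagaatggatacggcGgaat

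Counted from 1 at the A of the start codon, with the base of Bcl2a1a first, C48T, C94A, A312G, G381C and A490T lead to Bcl2a1b alone, and G4T to Bcl2a1d alone. The substitutions C11A, T12C, C16T, C22T, T337G and A407G separate Bcl2a1a from both other copies. Bases 95 to 311 are identical in all 3 copies, a run of 217 bases against a read length of 75. Of the 789 31-base words in the Bcl2a1a transcript 171 occur in neither other copy, and the corresponding numbers are 215 of 787 for Bcl2a1b and 91 of 833 for Bcl2a1d. When every annotated transcript was searched, 20.4% of the words of Bcl2a1a were its own, 11.2% of those of Bcl2a1b and 10.9% of those of Bcl2a1d. For Bcl2a1a and Bcl2a1b these are fewer words than the copies alone leave, since other transcripts, such as Gm29094 (not used here), hold some too. Gm29094 overlaps Bcl2a1b on the same strand and holds 47.3% of the Bcl2a1b words. Values of the 3 copies are therefore uncertain 1 by 1, and their sum is given beside them. The sum does not depend on the split among the copies, but reads shared with Gm29094 leave it uncertain too.

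The remaining members were nearly unique in sequence. Between 99.5% (Mcl1) and 100% (Bbc3) of the 31-base words of Bcl2l1, Mcl1, Bcl2l11, Bbc3 and Pmaip1 occurred in no other gene, against 93.8% for Bcl2 and 88.9% for Bax. Bcl2 (chr1:106538178-106714274, minus strand) overlaps the antisense gene D630008O14Rik, which holds 500 of its words, and Bax (chr7:45461697-45466898, minus strand) shares 164 words with Gm45808. Whether the quantification used the strand of the reads is not given in what is used here, so reads of the antisense partner of Bcl2 may be included. Gm45808 lies on the same strand as Bax, so strand would not separate that pair. Mcl1 lies at chr3:95658788-95663176, Bcl2l11 at chr2:128126038-128162547 and Bbc3 at chr7:16308393-16318205 on the plus strand, and Bcl2l1 at chr2:152780668-152831728 on the minus strand.

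The labelled cell type was checked against marker genes. Cd4 was listed at 97.7, 131 and 116 TPM in spleen replicates 1, 2 and 3 and at 26.8 and 27.2 TPM in tumor replicates 2 and 3. The T cell receptor component Cd3e stood at 70.7, 114 and 73.3 TPM in spleen and 13.8 and 12.9 TPM in tumor. All 12 T cell identity genes found were lower in both tumor libraries than in every spleen library, with sums of 1028 to 1352 TPM (spleen) and 248 to 318 TPM (tumor). All 16 macrophage and monocyte markers were higher, with sums of 22.2 to 23.3 TPM (spleen) and 6440 to 7087 TPM (tumor), and none was at 0 in every library of a tissue. Lyz2 alone, the lysozyme of myeloid cells, reached 1207 and 1259 TPM in tumor against 0.55, 4.96 and 2.69 TPM in spleen. The tumor libraries thus carried the labelled cell type's markers at a lower level beside abundant macrophage transcripts, and what part those transcripts have in the differences below was not tested. In bulk samples such as these, fewer cells of a type and less RNA per cell cannot be told apart. Markers of other cells were mixed. Of 8 dendritic cell markers 3 were higher in both tumor libraries than in every spleen library and 2 were lower, with sums of 51.3 to 60.6 TPM (spleen) and 120 to 172 TPM (tumor), to which Itgax gave 1.88 to 2.28 and 87.8 to 136 TPM. Of 10 neutrophil markers 2 were higher and 3 lower, with sums of 19.1 to 26.3 and 70.2 to 75.9 TPM, to which Csf3r gave 0.60 to 1.04 and 53.1 to 57.8 TPM (Camp was at 0 in both tumor libraries). Of 5 endothelial markers 2 were higher and 1 lower, with sums of 58.9 to 70.3 and 89.8 to 99.2 TPM, to which Kdr gave 0.45 to 0.84 and 32.7 to 33.1 TPM. Itgax, Csf3r and Kdr were named after their values were seen. B cell, natural killer cell, mast cell, CD8, erythroid, fibroblast and epithelial markers summed to at most 40.3 TPM in any library.

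Listed values summed to 268987 to 359532 TPM in the spleen libraries and to 569309 and 596116 TPM in the tumor libraries, and no 2 libraries held the same set of values. Read depth is not known from TPM, so no counting intervals are given. As a guide to the noise floor, the 95th percentile of 1134 olfactory receptor genes, which T cells are not known to use, lay at 10.6 to 16.2 TPM in spleen and 7.59 and 10.7 TPM in tumor. In spleen, Bcl2, Mcl1 and Bax exceeded that level in 3 of 3 libraries, Bcl2a1b in 1 of 3, and the other 6 members in none. In tumor, 8 members exceeded it in both libraries, and Bcl2 and Bbc3 in neither.

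Expression of the family differed strongly between the tissues. Of the 10 members, all of which passed the filter of a mean of at least 1 TPM, 9 were higher in tumor and 1, Bcl2, was lower (limma on log2(TPM + 1), Benjamini-Hochberg adjusted p below 0.05 over all 12979 genes tested). Bcl2a1a passed the filter only through its tumor values, so its direction was fixed by the filter, and of the other 9 members 8 were higher and 1 was lower. Over all tested genes 40.9% were called higher and 18.1% lower. Spleen and tumor values did not overlap for any of the 10 members, as they did not for 70.4% of tested genes. The members' median difference was 3.58 on the log2 scale, with a range from -2.05 to 6.02 (to 5.08 without Bcl2a1a), beside a median of 0.23 over all tested genes. With 3 libraries against 2, an exact rank test of a single gene has 10 arrangements and cannot give a two-sided p below 0.2, so tests rest on limma's pooling of the spread across genes.

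**Figure D1:**
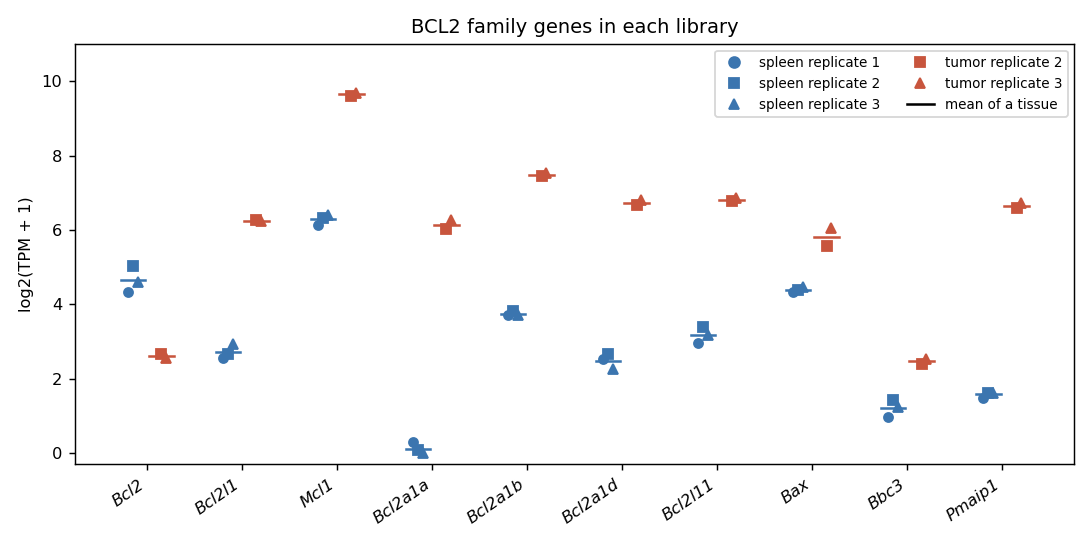
Level of each of the 10 genes on the log2(TPM + 1) scale, 1 point per library, with spleen replicates 1 to 3 in blue, tumor replicates 2 and 3 in red and a bar at each tissue's mean. Bcl2 is the 1 gene whose tumor points lie below its spleen points, and Bcl2a1a sits near 0 in spleen and above 6 in tumor, on that scale.

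Among the pro-survival genes, Bcl2 alone fell. It stood at 19.1, 32.0 and 23.4 TPM in spleen replicates 1, 2 and 3 and at 5.32 and 4.92 TPM in tumor replicates 2 and 3. The lowest spleen library was above both tumor libraries, and both tumor values were below the olfactory receptor level. The means of 24.9 ± 6.56 TPM (SD, n = 3) and 5.12 ± 0.28 TPM (SD, n = 2) are 4.86-fold apart, with 3.60-fold to 6.51-fold over the pairs of libraries. On the log2 scale Bcl2 fell by 2.05 ± 0.22 (SE; limma adjusted p = 1.2e-11). Among all listed genes its level moved from the 88.2nd to 92.0th percentile in spleen to the 58.7th and 56.3rd in tumor. When libraries were scaled so that the T cell identity genes had equal levels, the difference was -0.19 ± 0.25 and the call ended (limma adjusted p = 0.45).

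Mcl1, which encodes a short-lived survival protein, was the most abundant member in all 5 libraries. Spleen replicates 1, 2 and 3 had 69.6, 78.9 and 83.7 TPM of it, and the tumor replicates had 775 and 825 TPM. Its spleen and tumor values were far apart relative to their spread, at 77.4 ± 7.15 TPM (SD, n = 3) and 800.0 ± 34.7 TPM (SD, n = 2), a 10.3-fold difference. The log2 difference was 3.36 ± 0.20 (SE; limma adjusted p = 6.4e-20). Mcl1 lay within the top 3% of listed genes in every library, at the 97.8th to 98.4th percentile in spleen and the 99.7th in tumor.

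Bcl2l1, the gene of BCL-XL, was low in spleen and abundant in tumor. Spleen replicates 1, 2 and 3 had 4.92, 5.32 and 6.69 TPM, and tumor replicates 2 and 3 had 75.7 and 74.6 TPM. The tumor libraries differed from each other by less than the spleen libraries did. Means were 5.65 ± 0.93 TPM (SD, n = 3) and 75.2 ± 0.81 TPM (SD, n = 2), 13.3-fold apart, and the log2 difference was 3.53 ± 0.21 (SE; limma adjusted p = 2.5e-20).

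The Bcl2a1 genes, which encode the survival protein A1, showed the most extreme differences of the pro-survival group. Summed over the 3 copies, they reached 17.2, 18.4 and 15.9 TPM in spleen and 337 and 370 TPM in tumor. The sum was 20.6-fold higher in tumor (17.2 ± 1.25 TPM, n = 3, and 354 ± 23.4 TPM, n = 2, SD), and 20.1-fold with the further copy Bcl2a1c included. A score summed over members was given no test. A1 is known in myeloid cells as well as in activated lymphocytes, and the macrophage markers given above moved in the same direction. Whether they bear on the sum was not tested.

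Single copies of Bcl2a1, read with the uncertainty given above, differed in how much of the sum they took. Bcl2a1b was at 12.2, 13.0 and 12.1 TPM in spleen and 173 and 183 TPM in tumor, 14.3-fold apart (log2 difference 3.73 ± 0.21, SE; limma adjusted p = 1.7e-21). Bcl2a1d was at 4.75, 5.33 and 3.78 TPM in spleen and 101 and 111 TPM in tumor, 22.9-fold apart (4.25 ± 0.21; limma adjusted p = 1.9e-23). Bcl2a1a was listed at 0.23, 0.057 and 0 TPM in spleen and at 63.7 and 76.3 TPM in tumor. Its log2(TPM + 1) difference was 6.02. No p is given because its tumor values alone brought it past the filter, and no fold is given against values at or near 0. Bcl2a1a thus made up at most 1.31% of the summed Bcl2a1 level in spleen and 18.9% and 20.6% in tumor. The share of Bcl2a1b was 70.7% to 76.2% in spleen and 51.3% and 49.5% in tumor, and that of Bcl2a1d 23.8% to 28.9% and 29.8% to 29.9%.

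Within the summed level of the 6 pro-survival members, the share of Mcl1 differed little between the tissues and that of Bcl2 differed most. Bcl2 took 17.3%, 23.8% and 18.0% of that sum in spleen replicates 1, 2 and 3 and 0.45% and 0.39% in tumor replicates 2 and 3. Mcl1 took 62.8%, 58.6% and 64.5% in spleen and 65.0% and 64.7% in tumor. The Bcl2a1 copies together took 12.3% to 15.5% in spleen and 28.2% and 29.1% in tumor, and Bcl2l1 3.95% to 5.16% and 5.85% to 6.35%. The sum itself was 9.87-fold higher in tumor, with a spleen mean of 125 ± 12.5 TPM (SD, n = 3) and a tumor mean of 1234 ± 57.0 TPM (SD, n = 2). These shares are TPM within a library and do not change with the scaling between libraries.

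**Figure D2:**
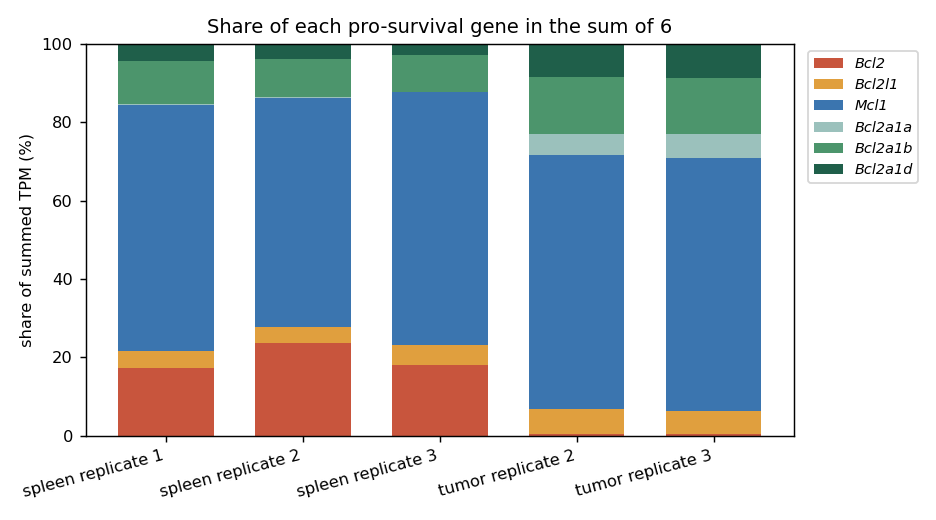
Share of each pro-survival gene in the summed TPM of the 6, in percent, 1 bar per library. The Bcl2 segment at the base takes 17.3% to 23.8% in the spleen libraries and under 1% in the tumor libraries, while the Mcl1 segment takes between 58.6% and 65.0%.

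Bax, the pore-forming effector, differed less than most members. Its level was 19.0, 19.9 and 21.2 TPM in spleen and 46.0 and 65.0 TPM in tumor. Every tumor value lay above every spleen value, and the tumor libraries were farther from each other than the spleen libraries were. Means of 20.01 ± 1.10 TPM (SD, n = 3) and 55.5 ± 13.4 TPM (SD, n = 2) were 2.78-fold apart (2.17-fold to 3.42-fold over the pairs), with a log2 difference of 1.41 ± 0.21 (SE; limma adjusted p = 1.2e-07). Tested against a 2-fold change instead of no change, the call was not kept (limma adjusted p = 0.14). With totals made equal between libraries the difference was 0.50, when that of the median tested gene was -0.54.

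Of the BH3-only genes, Pmaip1 (NOXA, a partner of MCL1) had the largest fold difference of the 9 members for which a fold could be given. It was listed at 1.81, 2.07 and 2.08 TPM in spleen and at 95.9 and 104 TPM in tumor. The tissue means were 1.99 ± 0.15 TPM (SD, n = 3) and 100.03 ± 5.82 TPM (SD, n = 2), 50.3-fold apart, with a log2 difference of 5.08 ± 0.20 (SE; limma adjusted p = 7.3e-27). All 3 spleen values were below the olfactory receptor level, so the spleen end of that fold is a low value. Pmaip1 moved from the 43.8th to 48.4th percentile of listed genes in spleen to the 95.3rd in both tumor libraries.

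Bcl2l11, the gene of BIM, rose 13.7-fold. Spleen replicates 1, 2 and 3 had 6.79, 9.57 and 7.97 TPM, and tumor replicates 2 and 3 had 108 and 115 TPM. No spleen value came near the tumor range. The difference of the means (8.11 ± 1.39 TPM, n = 3, and 111 ± 4.94 TPM, n = 2, SD) gave a log2 value of 3.64 ± 0.21 (SE; limma adjusted p = 9.7e-21).

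Bbc3, the gene of the p53-induced protein PUMA, stayed at low levels in both tissues. Its values were 0.96, 1.70 and 1.34 TPM in spleen and 4.26 and 4.79 TPM in tumor, all below the olfactory receptor level of their library. The tissues did not overlap, and the log2 difference was 1.25 ± 0.22 (SE; limma adjusted p = 2.3e-06), a 3.39-fold difference of the means. Against a 2-fold change the call was not kept (limma adjusted p = 0.51), and with a pseudocount of 10 in place of 1 the difference was 0.36. The summed BH3-only level had a spleen mean of 11.4 ± 1.89 TPM (SD, n = 3) and a tumor mean of 216 ± 11.1 TPM (SD, n = 2), of which Pmaip1 took 15.5% to 19.0% in spleen and 46.1% to 46.5% in tumor, and Bbc3 10.02% to 12.8% and 2.05% to 2.14%.

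The order of levels, which TPM allows because it is corrected for length, changed below Mcl1. In spleen Mcl1 was followed by Bcl2 and Bax, whose ranges overlapped, then by Bcl2a1b, Bcl2l11, the overlapping pair Bcl2l1 and Bcl2a1d, Pmaip1, Bbc3 and Bcl2a1a. In tumor Mcl1 was followed by Bcl2a1b, then by Bcl2l11, Bcl2a1d and Pmaip1, of which each overlapped the next, then by Bcl2l1, Bcl2a1a and Bax in the same way, and last by Bcl2 and Bbc3. By mean level Bcl2 was at place 2 of the 10 in spleen and at place 9 in tumor. The spleen order below Bcl2a1b is among values under the olfactory receptor level, which Bcl2a1b itself exceeded in 1 of 3 libraries. Bcl2 and Bbc3 were below that level in tumor. Places of the single Bcl2a1 copies carry the uncertainty given above.

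Ratios between members within a library show which genes moved apart, whatever the scaling between libraries. The ratio of Bcl2l11 to Bcl2, a pro-death gene over the survival gene whose protein BIM binds, was 0.355, 0.299 and 0.340 in spleen and 20.3 and 23.4 in tumor. The ratio of Mcl1 to Bcl2 was 3.64, 2.47 and 3.57 in spleen and 146 and 168 in tumor, and that of Bcl2l1 to Bcl2 was 0.166 to 0.286 in spleen and 14.2 and 15.2 in tumor. Bax to Bcl2 was 0.620 to 0.993 in spleen and 8.66 and 13.2 in tumor. Each of these 4 ratios over Bcl2 was higher in both tumor libraries than in any spleen library, by 13.0-fold (Bax) to 65.9-fold (Bcl2l11) of the means. Both tumor values of Bcl2 lay below the olfactory receptor level, as did all spleen values of Bcl2l11 and Bcl2l1. These folds therefore rest on low values.

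Ratios to Mcl1 differed much less. Bcl2l11 to Mcl1 was 0.0976, 0.121 and 0.0952 in spleen and 0.139 in both tumor libraries, a 1.33-fold difference. Bcl2l1 to Mcl1 was 1.29-fold higher in tumor and the Bcl2a1 sum to Mcl1 1.98-fold higher. Pmaip1 to Mcl1, a BH3-only gene over its main partner, was 0.0260, 0.0263 and 0.0248 in spleen and 0.124 and 0.126 in tumor, 4.86-fold higher. Bax to Mcl1 went the other way, with 0.252 to 0.273 in spleen and 0.0594 and 0.0789 in tumor, 3.75-fold lower. The summed BH3-only level over the summed pro-survival level was 0.0863, 0.0991 and 0.0878 in spleen and 0.174 and 0.176 in tumor, 1.92-fold higher. All spleen values of Bcl2l11, Bcl2l1 and Pmaip1 lay below the olfactory receptor level. These ratios and sums combine members and were given no test.

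**Figure D3:**
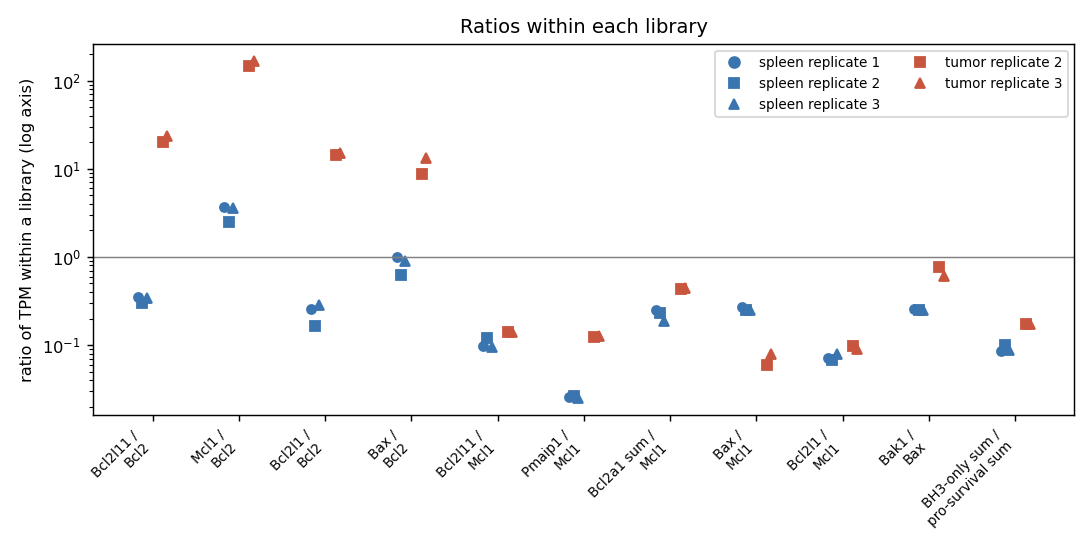
Ratios of TPM between members within each library, on a log axis, 1 point per library, with a line at a ratio of 1. The 4 ratios over Bcl2 lie 13.0-fold to 65.9-fold higher in tumor, while Bcl2l11 to Mcl1 and Bcl2l1 to Mcl1 differ by 1.33-fold and 1.29-fold. Tumor values of Bcl2 and spleen values of Bcl2l11 and Bcl2l1 lay below the olfactory receptor level.

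Levels between tissues depend on how libraries are scaled, and the members were followed through 5 other scalings. With median ratios, upper quartiles, equal totals, or totals without the 20 most abundant genes, the 9 higher members and Bcl2 kept their direction and call. Over all 12979 tested genes, 2648 to 4313 were called higher and 3920 to 7321 lower under these 4 scalings. Bax ranged from 0.42 to 1.08 over those 4 scalings on the log2 scale, Bbc3 from 0.54 to 1.02, and Bcl2 from -2.93 to -2.34. All 9 higher members had smaller differences there than as deposited, and Bcl2 fell by more. Mcl1 ranged from 2.35 to 3.02 (3.36 as deposited), Bcl2l1 from 2.58 to 3.22 (3.53) and Bcl2l11 from 2.67 to 3.32 (3.64). With equal totals Pmaip1 was at 4.27 (5.08 as deposited). The difference of the median tested gene moved from 0.23 to between -0.60 and -0.05 under those 4 scalings. Scaling on the T cell identity genes moved it to 1.99, and there Mcl1 was at 5.38, Pmaip1 at 6.78, Bax at 3.38 and Bcl2 at -0.19. With that scaling 12195 of all 12979 tested genes were called higher and 133 lower.

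**Figure D4:**
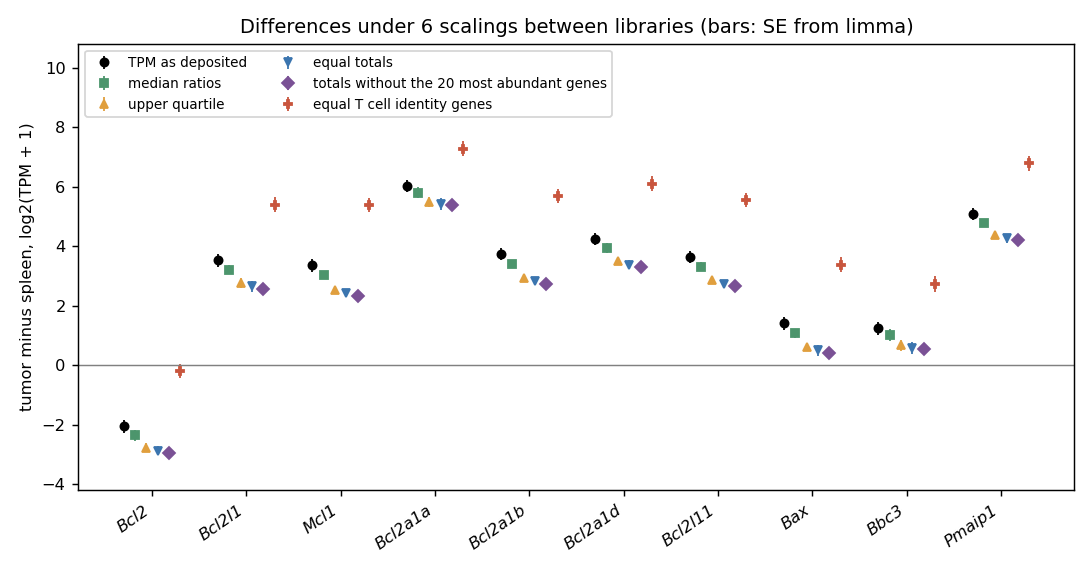
Tumor minus spleen difference of each of the 10 genes on the log2(TPM + 1) scale under the TPM as deposited and 5 other scalings, with bars for limma's SE. Of the 10 genes 9 lie above 0 under each scaling shown, and Bcl2 lies below 0, reaching -0.19 with equal T cell identity genes. The difference of the median tested gene ran from -0.60 to 1.99 over these scalings.

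The rest of the BCL2 family comprised 16 genes in 4 lists, of which 10 passed the filter. Of those 10, 6 were higher and 4 were not called, beside 40.9% called higher and 18.1% lower over all tested genes. The median difference of the 10 was 1.08. The effector Bak1 rose from 5.07 ± 0.25 TPM (SD, n = 3) to 37.5 ± 3.15 TPM (SD, n = 2), 7.38-fold, with a log2 difference of 2.66 ± 0.21 (SE; limma adjusted p = 5e-16). The ratio of Bak1 to Bax was 0.259, 0.249 and 0.253 in spleen and 0.765 and 0.610 in tumor. Bnip3, a divergent member induced by low oxygen and known for its part in mitophagy, had the largest difference of the 16, from 3.27 ± 0.27 TPM to 117 ± 6.14 TPM, 35.8-fold (4.79 ± 0.21; limma adjusted p = 8.8e-26). All spleen values of Bak1 and Bnip3 lay below the olfactory receptor level, so the spleen ends of these folds are low values.

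The other pro-survival gene that passed, Bcl2l2 (BCL-W), rose from 1.29 to 6.02 TPM (log2 difference 1.60). Another 3 BH3-only genes rose: Bid, which links death receptors to the mitochondria, from 3.79 to 12.4 TPM (1.49), Bad, whose protein is held inactive by phosphorylation, from 3.34 to 9.08 TPM (1.22), and Bmf from 1.56 to 3.71 TPM (0.93). Bcl2l2 and Bmf lay below the olfactory receptor level in every library. Bad exceeded it in 1 tumor library only, and Bid in both tumor libraries but no spleen library. Against a 2-fold change Bid (limma adjusted p = 0.056), Bad (0.6) and Bmf were not called. The divergent genes Bcl2l12 (-0.30), Bcl2l13 (0.03), Bcl2l15 (-0.45) and Bnip3l (0.24) did not pass the test. Bcl2l10, Bcl2a1c, Bok, Bik, Hrk and Bcl2l14 were below the filter. With equal totals the 10 genes split into 4 higher and 4 lower, Bad (0.43) and Bmf (0.28) losing their calls, with median ratios into 5 and 2, and with equal T cell identity genes all 10 were higher. Over all 12979 tested genes, 2724 were higher and 6662 lower with equal totals, and 4313 and 3920 with median ratios. With equal T cell identity genes those numbers were 12195 and 133.

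Genes that act below and above the family were described from 6 lists, beside 40.9% called higher and 18.1% called lower over all tested genes. Downstream, 7 of 8 apoptosome and caspase genes were higher and none was lower, with a median of 1.67. Of 7 inhibitor of apoptosis genes 6 were higher and none lower, with a median of 1.07, and Naip2, a cytosolic sensor of bacterial proteins carried on the same list, rose most (2.70 and 48.2 TPM, 3.73). With equal totals these lists split into 4 higher and 1 lower, and into 3 and 1, and with equal T cell identity genes all 8 and all 7 were higher. All 12979 tested genes split into 2724 higher and 6662 lower with equal totals, and into 12195 and 133 with equal T cell identity genes.

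In the death receptor pathway 6 of 10 genes were higher and 2 lower, beside 40.9% and 18.1% of all tested genes. The list's median was 0.95. The receptor gene Tnfrsf1a rose most, from 5.84 to 87.0 TPM (3.68). Fasl, the ligand by which T cells kill through FAS, lay below the olfactory receptor level in every library. Fasl fell most, from 5.22 ± 0.23 TPM (SD, n = 3) to 2.55 ± 0.75 TPM (SD, n = 2), or by 0.83 on the log2 scale (limma adjusted p = 0.00075). That call ended without tumor replicate 3 (-0.61, limma adjusted p = 0.061), and with equal T cell identity genes Fasl was higher (0.78). The other lower gene, the death receptor gene Tnfrsf10b (-0.54), was named after its value was seen, and its call ended without tumor replicate 2, spleen replicate 1 or spleen replicate 3 (limma adjusted p = 0.35, 0.095 and 0.11), and with equal T cell identity genes it was called higher (1.33, limma adjusted p = 8.3e-06). The list split into 4 higher and 3 lower with equal totals, and into 10 and 0 with equal T cell identity genes. All 12979 tested genes split into 2724 and 6662, and into 12195 and 133, under these 2 scalings.

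Among 12 transcription factors known to act on family genes, 8 were higher and 1 was lower, beside 40.9% and 18.1% of all tested genes. Their median was 1.00. Among those 8, E2f1 had a spleen mean of 0.94 TPM and passed the filter only through its tumor values. Rel, an NF-kappaB subunit known to drive Bcl2a1 and Bcl2l1, rose most (5.58 and 72.2 TPM, 3.50). Foxo1, a factor of resting lymphocytes, fell most, from 14.7 ± 4.80 TPM (SD, n = 3) to 3.32 ± 0.74 TPM (SD, n = 2), or by 1.83 (limma adjusted p = 6e-10), and with equal T cell identity genes its difference was -0.07. The split was 4 and 3 with equal totals, 7 and 3 with median ratios, and 11 and 0 with equal T cell identity genes. For all 12979 tested genes it was 2724 and 6662, 4313 and 3920, and 12195 and 133, in that order.

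Of 14 p53 target genes 12 passed the filter, and 6 were higher and 3 lower, beside 40.9% and 18.1% of all tested genes. The list's median was 0.63. Of the 6 higher genes 3, Cdkn1a, Sesn2 and Phlda3, had spleen means below 1 TPM and passed the filter only through their tumor values, so their direction was fixed by the filter. Sesn2 and Phlda3, like E2f1 above, were named after their values were seen. The cell cycle inhibitor Cdkn1a had a spleen mean of 0.60 ± 0.22 TPM (SD, n = 3) and a tumor mean of 117 ± 8.56 TPM (SD, n = 2) (log2 difference 6.21), and Trp53inp1 fell most, from 78.0 to 26.3 TPM (-1.54). Trp53 itself had means of 16.9 TPM (spleen) and 13.2 TPM (tumor) and did not pass the test (-0.33). Zmat3, the weakest of the lower calls and named after its value was seen (-0.50), was not called without tumor replicate 2, spleen replicate 1 or spleen replicate 3 (limma adjusted p = 0.58, 0.13 and 0.10), and with equal T cell identity genes it was called higher (1.23, limma adjusted p = 4.6e-05). The split was 5 and 5 with equal totals, 6 and 4 with median ratios, and 10 and 0 with equal T cell identity genes, where Trp53inp1 was at 0.46 and not called. For all 12979 tested genes it was 2724 and 6662, 4313 and 3920, and 12195 and 133, in that order.

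Of the genes acting on MCL1 protein turnover 5 of 6 passed the filter, and 4 were higher and 1 lower. Over all tested genes 40.9% were higher and 18.1% lower. The list's median was 0.80. March5, a mitochondrial ubiquitin ligase gene, rose most (7.30 and 36.7 TPM, 2.19). Huwe1, the gene of a ubiquitin ligase that marks MCL1 for degradation, was the lower one, at 124 ± 28.9 TPM (SD, n = 3) and 82.1 ± 13.5 TPM (SD, n = 2). Its difference of -0.58 ± 0.21 (SE; limma adjusted p = 0.019) was not called without tumor replicate 2 (-0.41, adjusted p = 0.31) or spleen replicate 3 (-0.65, adjusted p = 0.055), and with equal T cell identity genes it was 1.45. The list split into 1 and 1 with equal totals and 5 and 0 with equal T cell identity genes. All 12979 tested genes split into 2724 and 6662, and into 12195 and 133, under these scalings.

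**Figure D5:**
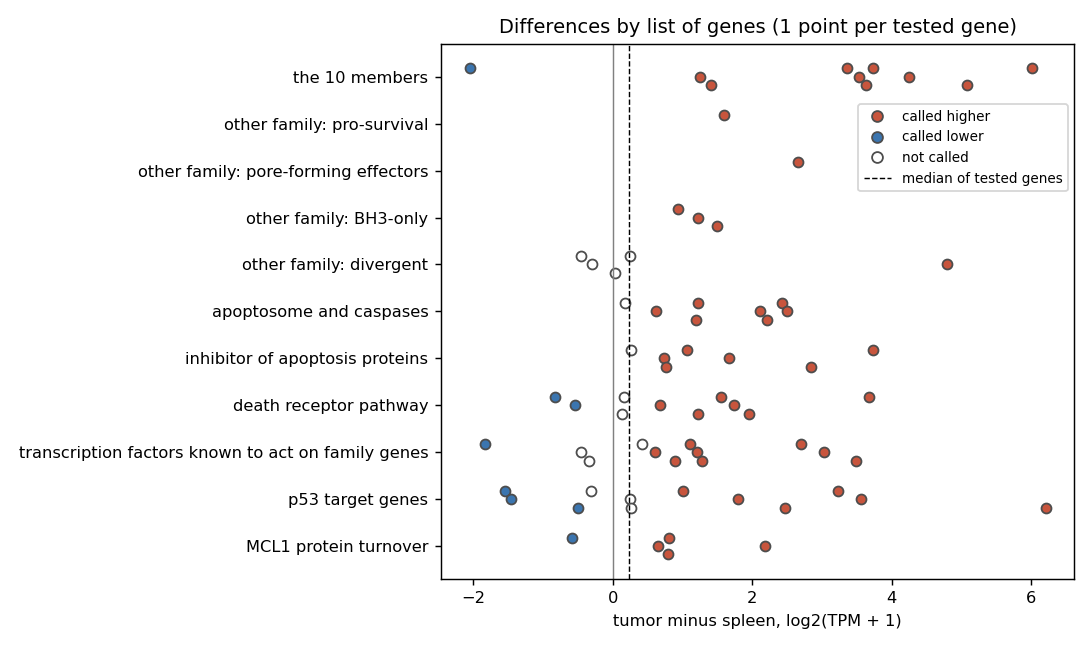
Tumor minus spleen difference on the log2(TPM + 1) scale for each tested gene of the members and of the pathway lists, 1 point per gene, red where called higher, blue where called lower and open where not called, with a dashed line at the median of all tested genes (0.23). The members span -2.05 to 6.02, and the point of Cdkn1a at 6.21 is the farthest to the right.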

How the data were processed

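Each library of total RNA has its own deposited file with 1 value for each symbol. The unit of the deposited values is taken as TPM, since they are not whole numbers and sum to less than 1000000 in each library. According to the submitters' processing notes, the tools were kallisto and DESeq2 and the build mm10. The notes give no version and no role for each. TPM keep no depth, so no count model was used and precision from counting is not stated. Samples were grouped by the tissue in the labels, and replicate numbers 2 and 3, which occur in both tissues, were not used as pairs.

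The 12979 genes whose mean over the 5 libraries reached 1 TPM were fitted in R 4.3.3 on log2(TPM + 1). The fit used limma 3.58.1 with its trend option and no term but tissue. Tests were two-sided, and p-values were adjusted by Benjamini-Hochberg over all of these genes. Residual degrees of freedom were 3 and prior degrees of freedom 44.1, so most of each gene's error estimate is borrowed from other genes at its level. For this comparison 12979 genes were simulated with 200 changed. At residual noise the fit found 54% of the genes changed 2-fold and 95% of those changed 4-fold (3 false calls). At moderated noise it found 87% and 100% (13 false calls). Changes were placed only in genes with a spleen mean above 3 on the log2(TPM + 1) scale, and all other genes were unchanged. Recovery of genes lower in spleen, such as Bbc3 and Pmaip1, was therefore not measured. The simulation also changed far fewer genes than were called in the data (5309 higher and 2347 lower). The adjusted p depends on that share, so the simulated recovery and false calls do not carry over to the comparison itself. Folds are ratios of mean TPM.

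Gene models and transcripts came from GENCODE M21 on GRCm38. The 31-base words shared with other genes were counted on transcripts in both directions. Words compared only among the Bcl2a1 copies were counted in the sense direction. Members and lists were chosen with earlier results of these data known. All members were named, and every gene of the other family lists, and the called genes with the largest rise and fall of each pathway list, except 1 result that is not reported here. Other scalings, pseudocounts of 0.1 and 10, other filters and thresholds, a replicate block and the omission of each library were tried.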

Additional observations from a re-analysis of the deposited data

How the results depend on the processing

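Of 179 alternative values for the 10 members, 176 kept direction and call and 0 reversed. The other 3 kept direction without passing the threshold (Bcl2 with equal T cell identity genes, Bax and Bbc3 against a 2-fold change). Other filters, the stricter threshold, the test against a 2-fold change and the fit without limma's trend option leave the log2 difference as it was. These could therefore not reverse a direction. The replicate block gave the same differences as leaving out spleen replicate 1. The tally also holds 18 values of Bcl2a1a, whose direction was fixed by the filter of the main fit. No member's call changed when any 1 library was left out. Bbc3 was not tested at a mean of at least 5 TPM. With equal T cell identity genes 0 members were lower in tumor. Over all tested genes, 5309 were higher and 2347 lower. The numbers higher were 2724 with equal totals, 3078 with upper quartiles, 2648 with totals without the 20 most abundant genes, 12195 with equal T cell identity genes and 2199 against a 2-fold change. The numbers lower under the same alternatives were 6662, 6366, 7321, 133 and 274, and 3920 with median ratios, 1456 at a mean of at least 5 TPM and 1552 at an adjusted p below 0.01. Leaving out 1 library each gave 4390 (without tumor replicate 3) to 5842 (without spleen replicate 2) higher and 1209 (without tumor replicate 2) to 2623 (without spleen replicate 2) lower. The cause of these shifts was not tested. The log2 fold of the summed Bcl2a1 level, 4.36 as deposited, was 4.03 with median ratios, 3.43 with equal totals, 3.54 with upper quartiles, 3.35 without the 20 most abundant genes and 6.42 with equal T cell identity genes. Replicate numbers 2 and 3 occur in both tissues, and a fit with the replicate block, with 1 residual degree of freedom, called 4877 genes higher and 2013 lower, with 9 members higher and 1 lower. The labels do not say that the numbers mark pairs. Deviations from the tissue means had a correlation across genes of 0.20 between the libraries numbered 2 and 0.066 between those numbered 3. Spleen replicate 1 and tumor replicate 3, whose numbers differ, had 0.19. With 2 tumor libraries the deviations mirror each other, so each spleen library has 1 positive and 1 negative value of equal size. These correlations therefore cannot decide whether the numbers mark pairs. Under the replicate block the calls of Tnfrsf10b (limma adjusted p = 0.13) and Zmat3 (0.12) were not kept. Read depth, which sets how far low members such as Bbc3 and the spleen level of Bcl2a1a can be trusted, is not known.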
